A study of Homo sapiens with 2 samples.

Results

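The canonical histone genes make the bulk of the H1, H2A, H2B, H3 and H4 proteins that package newly copied DNA. They were taken from the gene entries of the deposited table by symbol, as all HIST1 to HIST4 genes with a histone type in the name and without the P and number that end a pseudogene symbol. The rule gave 87 genes of 57736, namely 8 of H1, 21 of H2A, 26 of H2B, 16 of H3 and 16 of H4. By cluster, 66 were HIST1 genes, 16 HIST2, 4 HIST3 and 1 HIST4. The pattern also took 12 symbols with PS and a number, which are pseudogene symbols by name, and 16 of the 87 genes, 11 of these symbols among them, are not protein coding in GENCODE 29. The rule reads symbols and no measured values, and it was set with earlier results of these data known.

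The cells were A549, an established lung adenocarcinoma line with wild-type genotype on the labels, carrying a red fluorescent reporter of vimentin (VIM RFP). Of 2 AmpliSeq Transcriptome libraries, 1 came from cells in which transforming growth factor beta (TGF-beta) had been used to induce an epithelial to mesenchymal transition (EMT), and 1 from cells with no treatment. They are called the treated (TGF-beta in the plots) and the untreated library. The dose and time of TGF-beta, and whether the reporter cells were 1 clone, are stated in no source used here. AmpliSeq amplifies a short stretch of each targeted gene by multiplex PCR from 10 ng of total RNA. With 1 library per group there is no replicate, so no p-value and no SD can be given and every difference below compares these 2 libraries, not the conditions.

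Canonical histone genes are transcribed mainly in S phase, from clusters in which genes for the 5 types stand side by side. Their mRNAs have as a rule no introns and no poly(A) tail, and end instead just after a short stem-loop that the stem-loop binding protein SLBP holds. H2A, H2B, H3 and H4 form the core of the nucleosome, and H1 binds the DNA between nucleosomes.

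The letters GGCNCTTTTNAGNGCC, searched on the sense strand of GENCODE 29 coding transcripts (GRCh38), stood after the stop codon of 31 of the 71 members with such a transcript and in 4 of 19869 other coding genes (0.0201%). They began 22 to 67 bases after the stop codon, with a median of 36. The 5 forms are shown, each with its flanks in 1 gene, because they are the feature that sets these mRNAs apart from others. Capitals mark the 16 letters searched.
HIST2H2BE: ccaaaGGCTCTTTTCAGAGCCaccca
HIST1H2BD: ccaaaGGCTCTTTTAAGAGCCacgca
HIST1H2AG: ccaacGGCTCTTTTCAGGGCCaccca
HIST1H4B: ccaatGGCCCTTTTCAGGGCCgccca
HIST2H4A: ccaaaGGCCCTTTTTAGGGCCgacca
The form of HIST2H2BE was found in 17 genes of H2A, H2B and H3, and that of HIST1H2BD in 5 of H2B and H3. The forms of HIST1H4B, in 5 genes, and HIST2H4A, in 3, were found in H4 genes, and that of HIST1H2AG in this gene alone. Of the 40 other coding members, 36 have at most 20 annotated bases after the stop codon, so the letters could hardly be found there.

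RefSeq promoters (GRCh38.p14, 250 bases before to 50 after the start) were matched for 61 members. The letters TATAAA, on either strand, were in 40 of 61 (65.6%) against 12% of 27305 promoters, and in 32 of 61 (52.5%) they began 20 to 40 bases before the start on the gene's own strand, against 2.55%. CCAAT was in 51 (83.6%) against 35.7% of all promoters. It was in every matched promoter of H1, H2A, H2B and H3 genes and in 3 of 13 of H4 genes. The octamer ATTTGCAT, which POU2F1 binds, was in 26 (42.6%) against 1.80%, namely 11 of 14 H2A, 14 of 18 H2B, 1 of 10 H3 and no H1 or H4 promoter. The 150 bases before the start are shown for 4 genes whose counts, given further on, differ in direction. Capitals mark the 3 motifs on either strand. The ends of these motifs can overlap, and a promoter counts once for each.
HIST1H2BD, chr6:26157971-26158120, plus strand: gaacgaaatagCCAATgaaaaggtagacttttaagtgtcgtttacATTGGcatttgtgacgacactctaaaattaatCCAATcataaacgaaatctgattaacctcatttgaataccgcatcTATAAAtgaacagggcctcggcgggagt
HIST1H2BH, chr6:26251464-26251613, plus strand: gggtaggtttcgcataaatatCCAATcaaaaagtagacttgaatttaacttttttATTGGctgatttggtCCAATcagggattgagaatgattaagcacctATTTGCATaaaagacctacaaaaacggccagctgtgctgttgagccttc
HIST1H4B, chr6:26027284-26027433, minus strand: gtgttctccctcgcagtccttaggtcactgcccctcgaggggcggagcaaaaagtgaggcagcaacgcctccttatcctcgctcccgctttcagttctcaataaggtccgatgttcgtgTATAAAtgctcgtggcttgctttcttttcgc
HIST3H3, chr1:228425361-228425510, minus strand: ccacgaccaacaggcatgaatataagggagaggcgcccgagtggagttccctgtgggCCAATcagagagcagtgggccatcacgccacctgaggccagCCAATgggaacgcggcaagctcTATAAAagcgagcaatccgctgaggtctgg
A match of letters is a description and not a binding site. The 32 genes with TATAAA that entered the comparison had a median log2 ratio of -1.68 and the 11 without it had -1.99. For the octamer the medians were -1.39 over 18 genes with it and -1.99 over 25 without, and for CCAAT -1.80 over 36 and -1.57 over 7. These medians rest on matched promoters only. HIST1H4C, HIST1H3C and HIST1H2AH, with 357, 135 and 117 untreated counts, had none. The 40 matched genes with TATAAA had 226 treated and 1163 untreated counts and the 21 without had 53 and 296. All 71 coding members had 327 and 2305.

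The libraries held 597133 counts (treated) and 674784 counts (untreated) after rounding of the deposited expected counts, and 4163 and 6155 genes had at least 10 counts. The 10 genes with the most counts took 43.6% of the treated library and 32.6% of the untreated library. Levels are in CPM, a count set against the library total after TMM scaling (trimmed mean of M-values), so that 1 count is 1.77 CPM in the treated library and 1.40 CPM in the untreated library. Pairs of counts give the treated library first. A log2 ratio is treated over untreated, equal counts give 0.34, and each interval is an exact 95% interval that covers counting error only. The A549 and epithelial markers summed to 120 and 453 counts, with KRT7 at 32 and 179, KRT19 at 45 and 51, EPCAM at 7 and 4 and CDH1 at 4 and 1. In the same list ALDH1A1 had 14 and 104, KRT8 16 and 53, AKR1C1 2 and 36, AKR1B10 0 and 22 and KRT18 0 and 3. The alveolar type II markers summed to 59 and 66 counts, of which ABCA3 had 45 and 53, NKX2-1 had 4 and 8 and SFTPB had 5 and 1. In that list LAMP3 was at 0 in both libraries, SFTPA1 and SFTPC had 2 counts in each and SFTPD had 1 and 0. VIM had 56 counts in the treated library and 452 in the untreated library (log2 ratio -2.68, -3.10 to -2.27). VIM, the gene of the reporter and a mesenchymal marker, was thus lower in the library labelled as TGF-beta-induced EMT, and with 1 library per label no result can be given without it. CDH2 had 11 and 25 counts and FN1 had 3 and 0. Fibroblast, leukocyte, endothelial and germ cell marker lists summed to 6, 8, 13 and 4 counts in the treated library and 9, 18, 9 and 4 in the untreated library, with LUM, LYZ, PRM1 and TNP1 at 0 in both, and their part in the results was not tested.

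The comparison asks how the histone genes stood in the treated library against the untreated one. They summed to 346 counts in the treated library and 2314 in the untreated library, which is 0.0579% (exact 95% interval 0.0520 to 0.0644) and 0.343% (0.329 to 0.357) of all counts. In CPM the sums were 612 and 3240, a log2 ratio of -2.41 (-2.57 to -2.24) or 5.30-fold lower in the treated library with TMM, a direction that turns when the libraries are scaled on cytosolic ribosomal protein genes. Those 83 genes summed to 1492 and 21511 counts (log2 ratio -3.51), so that there were 232 histone counts per 1000 ribosomal protein counts in the treated library and 108 in the untreated library. The housekeeping genes GAPDH (115 and 2764 counts) and ACTB (34 and 463 counts) were also lower in the treated library, and the part of this wider shift in the histone result was not tested. Without the 12 PS symbols the histone counts were 327 and 2307 (5.59-fold lower with TMM). In bulk RNA, fewer cells that express histone genes and less histone mRNA per cell cannot be told apart.

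Gene by gene, 77 of the 87 had a count, 10 were at 0 in both libraries, and 55 reached 5 CPM in 1 of the libraries and entered the comparison. Of the 55, 37 (67.3%) were at least 2-fold lower in the treated library, beside 26.7% of all 15401 genes compared, and 7 (12.7%) were at least 2-fold higher, beside 22.0%. The other 11 lay between. The shares over all genes, 26.7% lower and 22.0% higher, also stand beside the counts of lower and higher genes given below for types, clusters and other groups. Where a count was 0 it was set to a floor of 3 counts, or to the other library's count where that was smaller. The ratio is then a bound that leaves out the counting error of the other library's count. The median log2 ratio was -1.99 (quartiles -3.39 and -0.33), beside 0.01 over all genes. With TMM, the counting interval lay wholly below 0 for 33 genes and wholly above 0 for 2. Histone genes can enter the comparison through the untreated library alone, as did 10 with 0 counts in the treated library. Genes with 1 or 2 treated counts, such as HIST1H3A (1 and 24) and HIST1H3B (2 and 59), also entered in this way. Entry through that library alone favours lower calls. Of 34 genes with at least 10 untreated counts, 31 were lower, and 16 of the 34 had 3 treated counts or fewer. With a stricter minimum of 20 CPM, 29 of 33 histone genes (87.9%) were lower and 2 (6.06%) higher, beside 36.0% and 18.5% of 5341 genes.

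**Figure D1:**
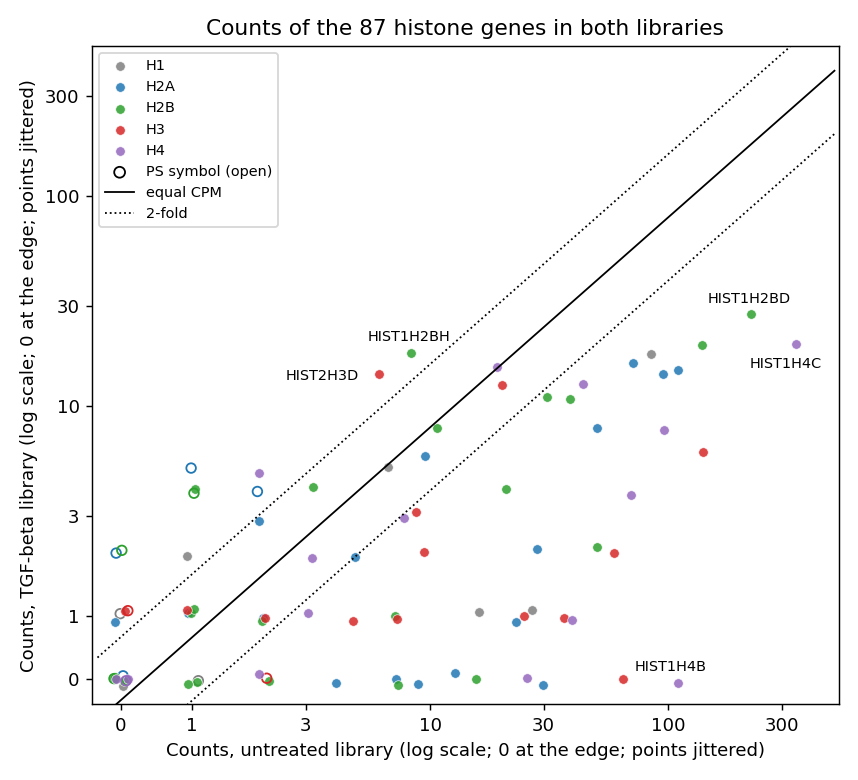
Counts of each of the 87 histone genes in the untreated library (x axis) and the treated library (y axis), both on log scales with 0 at the edge and a small random shift so that points do not cover each other. Points are coloured by histone type, the solid line marks equal CPM with TMM and the dotted lines 2-fold. Of the 55 genes compared, 37 were at least 2-fold lower and lie to the lower right and 7 at least 2-fold higher. Under ribosomal protein scaling 67 genes enter the comparison, of which 4 were lower and 48 higher. That scaling raises the log2 ratio of every gene by 3.51, and the shares over all genes were not computed for it.

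At least 10 counts were reached by 14 histone genes in the treated library and by 34 in the untreated library, and 26 and 16 were at 0, with 346 and 2314 histone counts to share among them. The count of genes reached thus differs with the summed level. In the treated library a count of 0 allows a share of up to 0.000502% of all counts, so absence cannot be read from it.

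H4, the partner of H3 in the nucleosome core, was the type with the lowest summed ratio, with an interval that overlaps that of H3. The 16 H4 genes summed to 71 counts in the treated library and 784 in the untreated library, or 126 and 1100 CPM (log2 ratio -3.13, -3.50 to -2.78, 8.75-fold lower). Of the 10 H4 genes compared, 8 were lower, 1 higher and 1 between, with a median log2 ratio of -3.03. HIST1H4C (chr6:26104104-26104518 in hg19, 1 exon) had 20 counts in the treated library and 357 in the untreated library, the most of any histone gene there (log2 ratio -3.82, -4.55 to -3.17, 14.1-fold lower). HIST1H4B, whose stem-loop and promoter are shown above, had 0 counts in the treated library and 112 in the untreated library. At the floor this is 29.6-fold lower (log2 ratio -4.89, with an upper limit of counting error of -4.56). HIST1H4H had 8 and 94 counts (-3.22, -4.47 to -2.18), HIST1H4E had 4 and 75 (-3.89, -5.81 to -2.48) and HIST1H4L had 1 and 38 (-4.91, -10.25 to -2.35). The intervals of these 3 overlap that of HIST1H4C. HIST1H4D was less far apart, with 12 and 45 counts (-1.57, -2.63 to -0.63). HIST1H4A had 0 and 27, at the floor 7.13-fold lower (log2 ratio -2.83, upper limit -2.44). HIST1H4J did not follow the other H4 genes, with 15 and 18 counts (0.07, -1.02 to 1.14). Its coding sequence is identical to that of HIST1H4K, which had 3 and 8 counts, so reads of the pair may have been divided between them, and together they had 18 and 26. HIST4H4, the lone HIST4 gene, had 5 and 2 counts (1.66, -0.95 to 5.05), too few to tell a difference from counting error.

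H3, which forms a tetramer with H4 and carries well known tail modifications, summed to 48 counts in the treated library and 379 in the untreated library over 16 genes (log2 ratio -2.65, -3.11 to -2.21, 6.26-fold lower). Of 11 H3 genes compared, 9 were lower, 1 higher and 1 between (median -2.47). HIST1H3C (chr6:26045639-26046097) had 6 counts in the treated library and 135 in the untreated library (-4.16, -5.63 to -3.0, 17.8-fold lower). HIST1H3B had 2 and 59 counts (-4.55, -7.63 to -2.63), HIST1H3I had 1 and 35 (-4.79, -10.14 to -2.22) and HIST1H3A had 1 and 24 (-4.25, -9.61 to -1.63). All 4 of these genes were at 6 counts or fewer in the treated library, so their order among themselves cannot be read. HIST1H3J had 0 and 64 counts, at the floor 16.9-fold lower (log2 ratio -4.08, upper limit -3.74). HIST1H3E had 2 and 10 (-1.99, -5.22 to 0.24), an interval that includes 0. The HIST1H3J entry overlaps HIST1H2AM on the same strand. In the untreated library 64.0 counts were laid to a HIST1H3J exon outside HIST1H2AM and 13.9 to an exon inside it. The exon values thus add to more than the 64 counts of the gene.

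HIST2H3D and HIST3H3 did not follow the other H3 genes. HIST2H3D (chr1:149784826-149785236, 1 exon) had 15 counts in the treated library and 6 in the untreated library (log2 ratio 1.66, 0.21 to 3.31, 3.16-fold higher). Its deposited values were 14.59 and 6.266, and without rounding the log2 ratio was 1.49. Its coding sequence is 98.8% identical to that of HIST2H3PS2 and 97.1% to those of HIST2H3A and HIST2H3C. Reads may thus have been divided among these genes, which the counting interval does not cover. HIST3H3, a testis histone gene by its usual description, had 12 and 20 counts (-0.40, -1.57 to 0.70). The other testis-type members were near 0, with HIST1H1T at 0 in both libraries, HIST1H2AA at 1 in both and HIST1H2BA at 0 and 7. The germ cell marker genes DAZL, DDX4, PRM1, PRM2 and TNP1 together had 4 counts in each library.

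H2A, which pairs with H2B, summed to 80 counts in the treated library and 469 in the untreated library over 21 genes (log2 ratio -2.22, -2.58 to -1.87, 4.65-fold lower). Of 16 H2A genes compared, 9 were lower, 2 higher and 5 between (median -1.51), and both higher entries carry PS symbols. HIST1H2AH (chr6:27114861-27115317) had 15 and 117 counts (-2.63, -3.51 to -1.85). HIST1H2AG had 14 and 96 (-2.44, -3.37 to -1.63), HIST1H2AM had 15 and 67 (-1.82, -2.74 to -1.0) and HIST2H2AB had 8 and 52 (-2.36, -3.65 to -1.28). The intervals of these 4 genes overlap one another. HIST1H2AI had 0 counts in the treated library and 30 in the untreated library, at the floor 7.92-fold lower (log2 ratio -2.99, upper limit -2.60). HIST1H2AE had 0 and 13, at the floor 3.43-fold lower (-1.78, upper limit -1.27). HIST2H2AA3 (1 and 22 counts) and HIST2H2AA4 (2 and 30) have identical coding sequences, and together they had 3 and 52. HIST1H2AB had 0 and 9 counts and HIST1H2AJ had 0 and 7. For these 2 the floor leaves a log2 ratio of -1.25 and -0.89, so at this depth the size of the difference is barely set.

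H2B, the partner of H2A, had the highest summed ratio of the types, nearest to 0 with TMM and farthest above 0 under ribosomal protein scaling. The 26 H2B genes summed to 120 counts in the treated library and 542 in the untreated library (log2 ratio -1.84, -2.14 to -1.55, 3.58-fold lower), and the interval overlaps those of H1 and H2A but not those of H3 and H4. Of 14 compared, 8 were lower, 3 higher and 3 between (median -1.32). HIST1H2BD (chr6:26158349-26171577 in hg19) had 28 counts in the treated library, the most of any histone gene there, and 208 in the untreated library (-2.56, -3.18 to -1.98, 5.89-fold lower). The exon entries laid 28.2 and 207 of its counts on the first exon and none on the exon further downstream. HIST2H2BE had 21 and 132 counts (-2.32, -3.06 to -1.65, 4.98-fold lower). This gene and HIST1H2BD did not differ in ratio beyond counting error. HIST1H2BN had 2 and 51 counts (-4.34, -7.42 to -2.41), HIST1H2BM had 11 and 40 (-1.53, -2.64 to -0.54) and HIST1H2BC had 11 and 30 (-1.11, -2.26 to -0.07). HIST1H2BF had 0 and 15, at the floor 3.96-fold lower (log2 ratio -1.99, upper limit -1.51). HIST1H2BK had 4 and 20 (-1.99, -3.99 to -0.41), of which 2.66 and 13.9 lay on a downstream exon. Its entry overlaps that of HIST1H4I on the opposite strand.

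HIST1H2BH (chr6:26251879-26252303, 1 exon) did not share the direction of the H2B sum. It had 17 counts in the treated library and 8 in the untreated library (log2 ratio 1.42, 0.13 to 2.84, 2.68-fold higher). Its promoter, shown above, carries the octamer and 3 CCAAT matches but no TATAAA in the 150 bases. HIST1H2BE had 8 and 11 counts (-0.12, -1.64 to 1.32). With TMM, HIST1H2BH and HIST2H3D were the only 2 of the 55 genes whose counting interval lay above 0. Their lower limits, 0.13 and 0.21, are smaller in size than the shift of -0.22 that DESeq2 size factors gave. With those factors both intervals include 0. The other 5 higher entries rested on 4 or 5 counts in the treated library. These were HIST4H4, HIST1H2BG (4 and 1 counts) and the PS symbols HIST1H2APS1 (4 and 2), HIST1H2APS2 (5 and 1) and HIST1H2BPS2 (4 and 1), named here after their values were seen. The 12 PS symbols together had 19 and 7 counts (log2 ratio 1.78, 0.46 to 3.27).

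**Figure D2:**
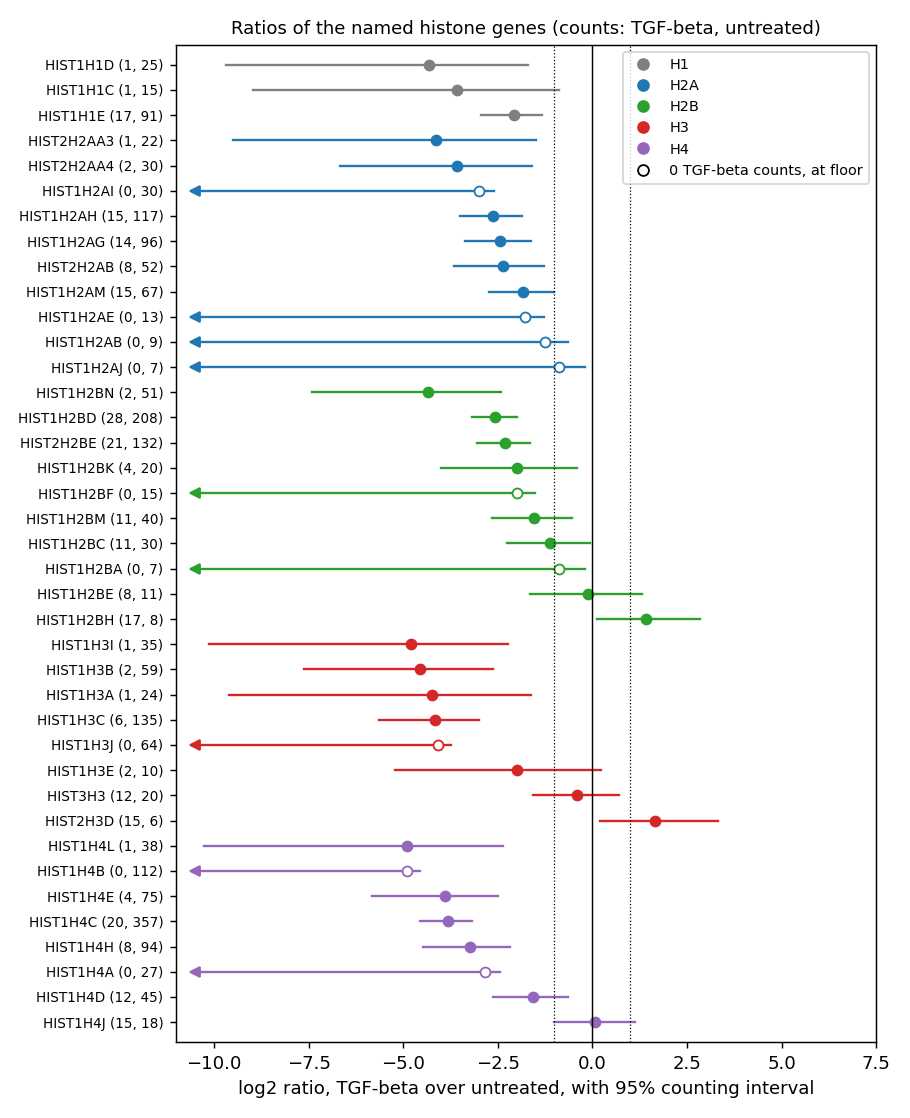
The log2 ratio of each histone gene with at least 10 counts in 1 library, or with 0 in one and at least 5 in the other, on the x axis, with exact 95% counting intervals as lines and TMM scaling. Counts in the treated and untreated libraries stand beside each symbol, open points are bounds at the floor and arrows run beyond the axis. HIST1H2BH and HIST2H3D lie to the right of 0 with their intervals, and most other genes to the left, which turns under ribosomal protein scaling.

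H1, the linker histone, had the fewest genes. The 8 H1 genes summed to 27 counts in the treated library and 140 in the untreated library (log2 ratio -2.04, -2.69 to -1.44, 4.11-fold lower), and 3 of the 4 compared were lower. HIST1H1E (chr6:26156559-26157343) carried most of this, with 17 and 91 counts (-2.08, -2.93 to -1.33). HIST1H1D had 1 and 25 counts (-4.31, -9.67 to -1.70) and HIST1H1C had 1 and 15 (-3.57, -8.97 to -0.87). Both intervals are wide and overlap that of HIST1H1E. HIST1H1A, between the 2-fold limits, had 5 and 7 counts.

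**Figure D3:**
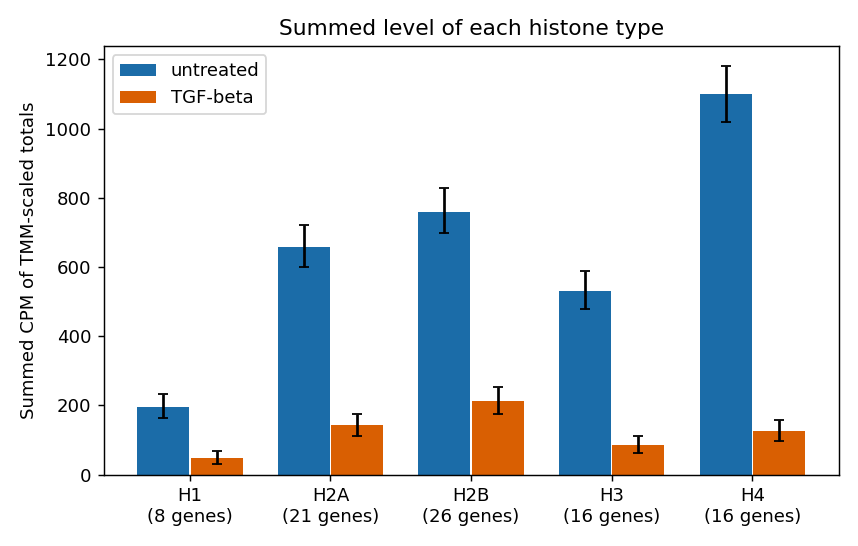
Summed CPM of each histone type (y axis, from 0) in the untreated and treated libraries, with exact 95% Poisson intervals for counting error as bars. With TMM all 5 types are lower in the treated library, from 1100 to 126 CPM for H4 and from 760 to 212 CPM for H2B, which turns for each type under ribosomal protein scaling.

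The make-up of the histone counts, which does not depend on the scaling between libraries, also differed. H4 genes held 33.9% (32.0 to 35.9) of the histone counts of the untreated library and 20.5% (16.4 to 25.2) of those of the treated library. H2B genes held 23.4% (21.7 to 25.2) of the untreated and 34.7% (29.7 to 40.0) of the treated counts. For H4 and H2B the counting intervals of the 2 libraries do not overlap. H1 held 6.05% and 7.80%, H2A 20.3% and 23.1%, and H3 16.4% and 13.9%, of the untreated and treated counts, with intervals that overlap. These are shares of counts, not corrected for length. Per 1000 coding bases, over the 71 members with a coding transcript, H4 held 40.3% in the untreated library and 26.6% in the treated library, and H2B 22.6% and 34.6%. Amplicon efficiencies were not used here, so neither scale sets the level of one type against another, and the shares serve to compare the libraries. HIST1H4C alone held 15.4% of the untreated histone counts. Without HIST1H4C and HIST1H2BD, the genes with the most counts in each library, H4 held 24.4% of the untreated and 17.1% of the treated counts, and H2B 19.1% and 30.9%. The 10 genes with the most counts held 61.2% of the untreated and 51.2% of the treated histone counts, and the lists shared 6 genes, HIST1H1E, HIST1H2AG, HIST1H2AH, HIST1H2BD, HIST1H4C and HIST2H2BE.

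By cluster, the HIST1 genes of chromosome 6 summed to 266 counts in the treated library and 2034 in the untreated library (log2 ratio -2.60, -2.79 to -2.41, 6.06-fold lower), and 33 of the 46 compared were lower and 5 higher. The cluster includes HIST1H2BPS3, which lies on chromosome 13 and had no counts. The HIST2 genes of chromosome 1 summed to 53 and 246 counts (-1.88, -2.34 to -1.45, 3.68-fold lower), with 4 of 5 compared lower and 1 higher. The HIST3 genes, also on chromosome 1, had 22 and 32 counts (-0.20, -1.06 to 0.62), an interval that overlaps neither that of HIST1 nor that of HIST2. None of the 3 HIST3 genes compared passed 2-fold, with HIST3H3 at 12 and 20 counts, HIST3H2A at 6 and 9 and HIST3H2BB at 4 and 3. HIST3 held 6.36% (4.03 to 9.47) of the treated histone counts and 1.38% (0.948 to 1.95) of the untreated ones, and HIST1 held 76.9% (72.1 to 81.2) and 87.9% (86.5 to 89.2).

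Within HIST1, a new block was begun where the next gene lay over 100000 bases away. The largest block, with 37 genes at chr6:26016607-26322520, had 160 counts in the treated library and 1413 in the untreated library (log2 ratio -2.81, 7.0-fold lower), and 21 of 26 genes compared were lower and 2 higher. The block of 5 genes at chr6:27093676-27115317 had 35 and 237 counts (-2.42), and all 3 compared were lower. The block of 18 genes at chr6:27774853-27861669 had 59 and 373 counts (-2.32), with 9 of 14 lower and 1 higher. A small block of 4 genes at chr6:25726291-25733055, which holds HIST1H2AA and HIST1H2BA, had 7 and 10 counts. The 13 other genes between the histone genes had 7 and 18 counts in all, too few for a comparison with their neighbours.

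**Figure D4:**
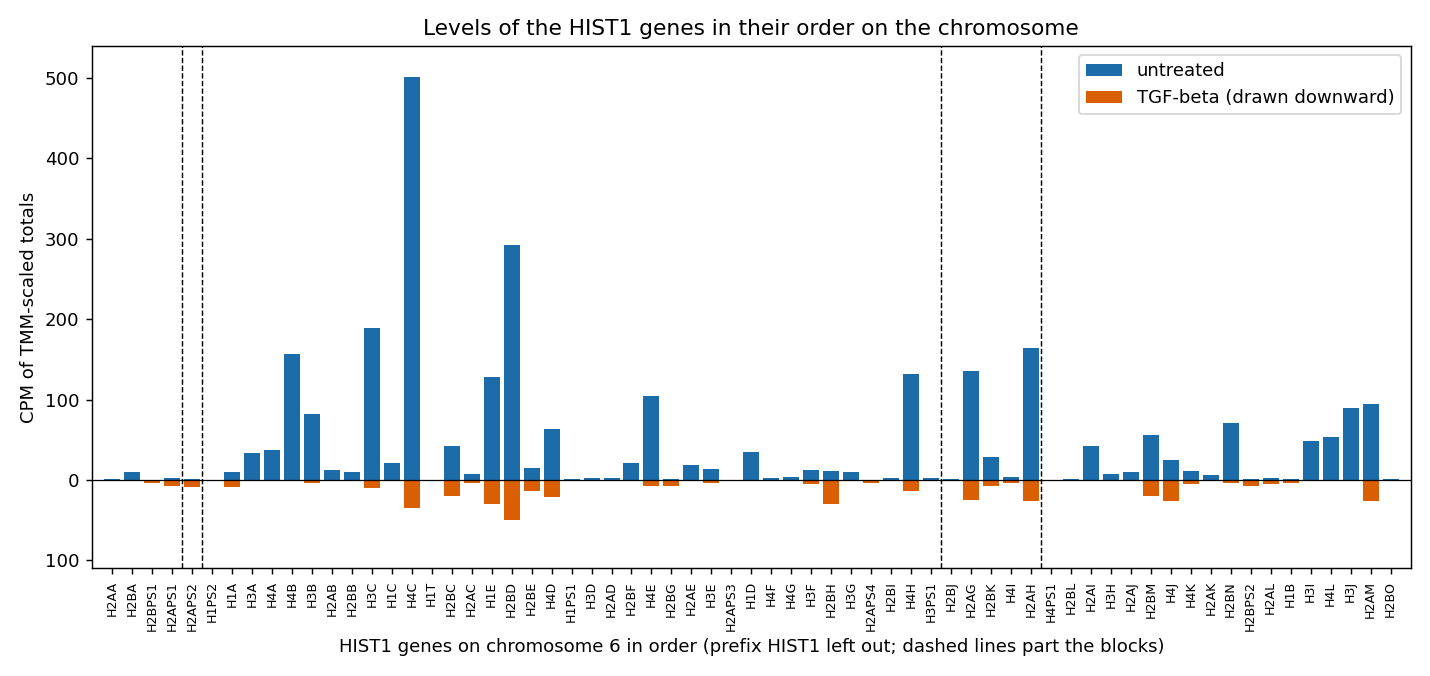
CPM (y axis, from 0 in both directions) of the HIST1 genes on chromosome 6 in their order along it, with the untreated library drawn upward and the treated library downward. Dashed lines part the blocks. Levels are uneven along the blocks, from 501 CPM for HIST1H4C in the untreated library to genes at 0. HIST1H2BH is among the genes with a longer bar for the treated library, many of which had few counts.

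Many H2A and H2B genes share a promoter region and are read in opposite directions. PS symbols were left out here, and among the other members there were 16 pairs with starts within 1000 bases on opposite strands. The 16 pairs had 129 to 346 bases between the genes (median 244), and 14 of them were an H2A with an H2B gene. In some pairs the counts of the partners were far apart and in others close. HIST2H2BE had 21 and 132 counts and its partner HIST2H2AC 1 and 0. HIST1H2AG had 14 and 96 and its partner HIST1H2BJ 0 and 1. HIST3H2A had 6 and 9 and its partner HIST3H2BB 4 and 3. In 6 pairs both genes entered the comparison, and in 1 of these, HIST1H2BK with HIST1H2AH, both were lower. In 1 pair the calls were opposite, with HIST1H2BG at 4 and 1 counts and HIST1H2AE at 0 and 13. The efficiency of the amplicon of each gene was not used here, so these counts do not rank the levels of partners.

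The ratios were also set beside the length of the annotated transcript, the first by identifier that holds the stem-loop letters. For 12 genes it ends within 100 bases after the letters, and these summed to 77 counts in the treated library and 610 in the untreated library. Of the 11 of them compared, 8 were lower and none higher (median log2 ratio -2.99). For 19 genes it runs over 100 bases past the letters, and these summed to 95 and 393 counts. Of the 13 of them compared, 7 were lower and 3 higher (median -1.11). Over all genes compared, 26.7% were lower and 22.0% higher. The 36 coding genes with at most 20 bases annotated after the stop codon had a median of -1.99 over 25 compared, with 19 lower and 1 higher. No source used here gives how the RNA was primed for reverse transcription. The split was made with the ratios known and is a description.

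Members with more than 1 exon in the table gave a like picture to those with 1. The 47 compared with 1 exon had a median log2 ratio of -1.99, with 31 lower and 6 higher, and the 8 with more had -2.27, with 6 lower and 1 higher. Other protein coding genes with 1 exon had a median of -0.34 over 649 genes, with 212 lower and 121 higher. Coding sequences are alike within a type, with a median identity between pairs of 71.6% in H1, 85.1% in H2A, 88.4% in H2B, 85.3% in H3 and 83.5% in H4. No source used here gives how the authors placed reads that fit several genes. For 43 of the 87 genes the deposited values were whole numbers in both libraries (tolerance 1e-06), and the others had a fraction in at least 1.

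The list of 21 other histone genes holds mainly replacement variants, which are made outside S phase as well, and a few genes without introns such as H2AFX, H1F0 and H1FX. Of 16 compared, 7 were lower (43.8%) and 2 higher (12.5%), beside 26.7% and 22.0% of all genes, with a median log2 ratio of -0.77. The 21 genes summed to 224 and 574 counts (-1.02). H3F3A, which encodes the replacement histone H3.3, had 4 and 76 counts (-3.91, -5.82 to -2.50). H3F3B, which encodes the same protein and is named here after its values were seen, had 100 and 261 (-1.05, -1.40 to -0.71). H2AFV, a gene of the H2A.Z family, had 1 and 26 counts (-4.36, -9.72 to -1.76), and H2AFY, of macroH2A, had 6 and 22 (-1.54, -3.13 to -0.19). The intervals of H3F3A and H3F3B do not overlap. HILS1, also named after its values were seen, went the other way with 25 and 15 counts (1.07, 0.09 to 2.10). With TMM, intervals lay wholly below 0 for 7 of the 16 compared and wholly above 0 for 1, HILS1.

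Chaperones, which carry histones to DNA, held 10 lower (43.5%) and 3 higher genes (13.0%) of 23 compared (median -0.66), beside 26.7% and 22.0% of all genes. TMM sets these directions, which shift up by 3.51 in log2 under ribosomal protein scaling. The nucleosome assembly genes NAP1L1, with 1 and 66 counts (log2 ratio -5.71, -11.03 to -3.18), and NAP1L4, with 1 and 43 (-5.09, -10.43 to -2.54), had the lowest ratios of the list. SSRP1, of the FACT complex, had 2 and 56 counts (-4.47, -7.55 to -2.55), and CHAF1A, of the chromatin assembly factor, had 1 and 22 (-4.12, -9.49 to -1.49). The 25 genes together had 250 and 548 counts.

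Of 14 genes compared that transcribe histone genes or process their mRNAs, 4 were lower and 4 higher (28.6% each, median log2 ratio 0.14). These shares are near those of all genes compared, 26.7% lower and 22.0% higher. The list had 661 and 588 counts in all, of which SRRT, named after its values were seen, had 503 and 459. HINFP, a transcription factor of H4 genes, had 4 and 25 counts (log2 ratio -2.31, -4.29 to -0.77), and LSM11, of the U7 snRNP that cuts histone mRNA, had 5 and 22 (-1.80, -3.56 to -0.37). Both lie below 0 with their intervals. UPF1, a helicase of mRNA decay that also acts on histone mRNA, had 84 and 17 counts (2.64, 1.88 to 3.49), and ZCCHC11, which adds uridines to histone mRNA, had 15 and 3 (2.66, 0.84 to 5.09). SLBP, named after its values were seen, was at 0 in both libraries, and NPAT, the coactivator of histone genes, had 1 and 8 counts.

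S phase and DNA replication genes summed to nearly the same level, with 320 and 401 counts over 43 genes (log2 ratio 0.01, -0.21 to 0.23). Of 26 compared, 11 were lower (42.3%) and 5 higher (19.2%), beside 26.7% and 22.0% of all genes (median -0.37). PCNA, the sliding clamp, had 1 and 22 counts (-4.12, -9.49 to -1.49), TK1, thymidine kinase, had 4 and 60 (-3.57, -5.49 to -2.14), and CDK2, the kinase of S phase entry, had 1 and 15 (-3.57, -8.97 to -0.87). POLD1, a replicative polymerase subunit, had 3 and 25 (-2.72, -5.09 to -1.01). TYMS, thymidylate synthase, went the other way with 62 and 13 counts (2.59, 1.71 to 3.58). So did GINS3, of the replicative helicase, with 58 and 14 (2.39, 1.53 to 3.34), both named after their values were seen. TYMS and GINS3 hold a large part of the 320 treated counts, so the nearly equal sum rests in part on them. Many genes of the list had few counts, with 13 at 0 in the treated library and 6 in the untreated library.

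**Figure D5:**
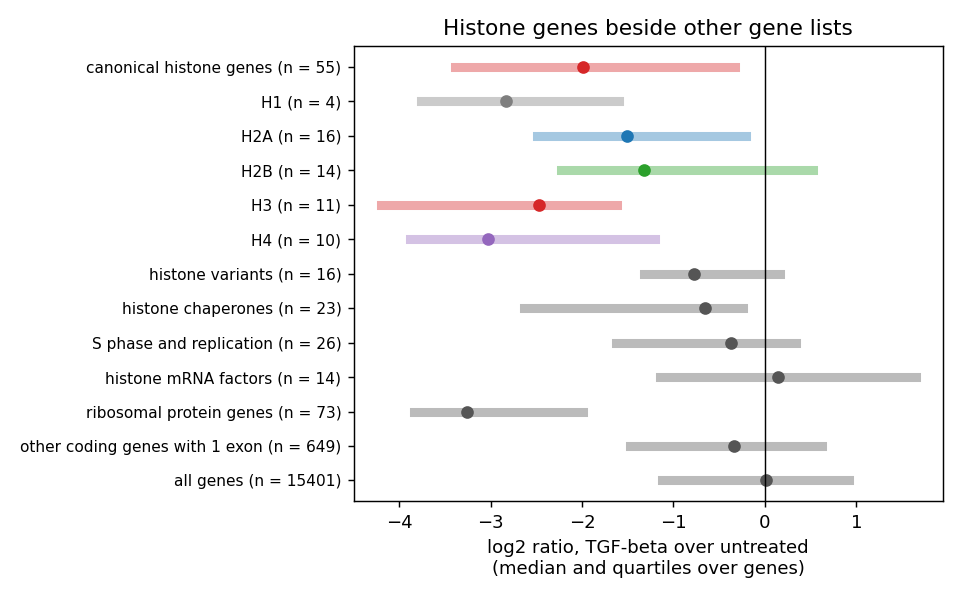
Median log2 ratio (points) and quartiles (bars) over the genes compared in each list, with TMM scaling, and the number of genes in brackets. The histone types lie between -1.32 for H2B and -3.03 for H4, above ribosomal protein genes (-3.26). They lie below histone variants (-0.77), chaperones (-0.66), S phase genes (-0.37) and all genes (0.01). Under ribosomal protein scaling every ratio shifts up by 3.51. The histone median then turns to 2.26, over the 67 genes that enter under that scaling. For the genes drawn here, the order of the lists stays the same.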

How the data were processed

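The deposited table gave expected counts, estimates with fractions, per gene, transcript and exon, not normalized, for 2 libraries, and the gene entries were used. Per the submitters' processing notes, hg19 and DESeq were used, with no role named. No source used here gives the aligner, the counting program or its use of strand. Coordinates of genes are those of the deposited table (hg19), coding transcripts are from GENCODE 29 (GRCh38) and promoters from RefSeq (GRCh38.p14). No coordinate was carried from one build to another.

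Expected counts were rounded to the nearest whole number. Libraries were scaled with TMM in edgeR 4.0.16 (R 4.3.3), with factors of 0.946 and 1.06, and not tested. A gene entered with at least 5 CPM in 1 library. No pseudocount was added, the floor was 3 counts (5.31 CPM in the treated and 4.21 CPM in the untreated library), and a call is a ratio of at least 2-fold. Intervals of ratios and shares are exact 95% Clopper-Pearson intervals, those of ratios conditional on the summed count, and the code was tested on simulated data. PCR reads that carry no molecular identifier are not independent molecules, and floors and intervals cover counting error only.

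Histone genes were named with at least 10 counts in 1 library, or with 0 in one and at least 5 in the other, and of each other list up to 4 genes with at least 10 counts and the largest differences. Others are named as chosen afterwards, or as neighbours or testis-type genes. The members and lists were chosen with earlier results of these data known. Alternatives covered scaling (DESeq2 1.42.0 size factors, total counts, upper quartile), filters, floor, rounding and members left out.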

Additional observations from a re-analysis of the deposited data

How the results depend on the processing

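No paired analysis was possible because each group has 1 library, and for the same reason no library could be left out. All 32 named histone genes that were at least 2-fold lower stayed below a log2 ratio of -1 under 6 alternatives of scaling, floor and rounding. The scalings among these could change little. They moved ratios up by at most 0.08, and the ratio nearest the limit was -1.11 (HIST1H2BC). Ribosomal protein scaling, given below, is not among the 6. DESeq2 size factors, total counts and upper quartile scaling shifted every log2 ratio by -0.22, -0.16 and 0.08. Over all alternatives planned at the start, the histone genes at least 2-fold lower numbered 29 to 40. With at least 20 CPM in 1 library, 33 genes were compared, 2 were higher and the median was -2.83. With at least 1 CPM, or with no filter, the median was -0.99, since genes with 1 to 3 counts then enter. Without pseudogene symbols 4 genes were higher. Without the gene with the most counts in each library, the histone genes held 0.0499% of the treated and 0.259% of the untreated library. The untreated histone counts were then divided as 8.0% H1, 26.8% H2A, 19.1% H2B, 21.7% H3 and 24.4% H4, with 84.0% in HIST1 and 14.1% in HIST2. An alternative chosen after seeing the data, scaling on cytosolic ribosomal protein genes, shifted every log2 ratio by 3.51. With it 67 histone genes entered the comparison, and their median turned to 2.26, with 48 genes higher and 4 lower. The shares of all genes called higher and lower under this scaling were not computed. All genes shift alike, so among genes compared with TMM the histone median stays below that of all genes (-1.99 and 0.01 with TMM). Depth limits all of this, since 51 of the 87 histone genes had under 10 counts in both libraries.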
